A study of Mus musculus with 6 samples.

Results

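Smoke exposure was accompanied in the lungs of all 3 kinds of mice by a large increase in Cyp1a1 and a smaller increase in Cyp1b1, while the receptor gene Ahr and the other measured members did not pass the test. The genes described are the aryl hydrocarbon receptor, Ahr, and 6 genes known as its targets or relatives of them: the cytochrome P450s Cyp1a1, Cyp1a2, Cyp1b1 and Cyp2s1, the ADP-ribosyltransferase Tiparp and the xanthine dehydrogenase Xdh. They were taken as every probe set whose single gene symbol in the platform annotation was one of these 7, which gave 7 of 8252 named genes and 9 of the 12488 probe sets on the array. Cyp1a1 and Cyp1b1 had 2 probe sets each and the other genes 1. Of the 9, 6 passed the filter on low signal, and these covered every member gene except Cyp1a2.

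The 6 Affymetrix arrays held total RNA of mouse lung, namely a control and a smoked sample of C57, DBA and ICR mice. Smoked mice were exposed to the smoke of 3 cigarettes a day on 5 days a week for 4 weeks, and the labels call the other lungs normal. C57 and DBA are inbred and ICR is an outbred stock; the labels give no age, sex, substrain or genotype, and number every sample mouse 1. No strain had replicates within an exposure, so the smoke effect was judged from the spread over strains (n = 3 pairs). Median deposited intensity was 52.2 to 84.8 on 5 arrays and 25.9 on the ICR smoked array. There the beta-actin probe sets also gave the largest ratio of 3' over 5' signal (4.75, against 1.46 to 2.75 on the others). Among the others the ratio was higher in C57 (2.75 control, 2.51 smoked) than in DBA (1.46 and 1.66) and the ICR control (1.63). The part of RNA quality in the differences between arrays was not tested. The lung label was borne out by Scgb1a1, the main secretory protein of club cells, which read 7572 to 10324, and Sftpc, the surfactant protein of alveolar type II cells, which read 7184 to 10579.

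The aryl hydrocarbon receptor is a transcription factor held in the cytoplasm by chaperones until it binds a ligand such as a polycyclic aromatic hydrocarbon, of which tobacco smoke holds many. It then enters the nucleus, pairs with Arnt and binds DNA at sites with the core GCGTG. Cyp1a1 is its classical target, and the enzyme oxidizes the same hydrocarbons, which can clear them or form reactive products. Induction in lung is known in endothelial, club and alveolar type II cells. Laboratory strains are known to differ at Ahr itself: C57BL/6 mice carry a form with high affinity for ligand and DBA/2 mice a form with low affinity. The arrays measured the level of Ahr RNA and not its allele.

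The 250 bases before the start of transcription are shown for the P450s of family 1 and for Tiparp. They come from RefSeq (GRCm38.p6), which held promoters of 5 of the 7 genes, Cyp2s1 among them. Capitals mark the receptor core GCGTG, or CACGC where it lies on the opposite strand, and the TATA box core TATAAA.
Cyp1a1: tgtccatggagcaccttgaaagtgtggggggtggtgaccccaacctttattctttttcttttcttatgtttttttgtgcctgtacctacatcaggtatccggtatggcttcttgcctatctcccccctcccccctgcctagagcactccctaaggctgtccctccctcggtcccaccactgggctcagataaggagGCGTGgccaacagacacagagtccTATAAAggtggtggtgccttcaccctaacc
Cyp1b1: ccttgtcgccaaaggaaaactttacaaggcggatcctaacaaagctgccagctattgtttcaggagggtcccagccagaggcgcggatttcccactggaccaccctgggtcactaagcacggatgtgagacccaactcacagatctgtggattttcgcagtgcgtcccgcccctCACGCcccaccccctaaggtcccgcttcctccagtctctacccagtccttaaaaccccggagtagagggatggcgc
Cyp1a2: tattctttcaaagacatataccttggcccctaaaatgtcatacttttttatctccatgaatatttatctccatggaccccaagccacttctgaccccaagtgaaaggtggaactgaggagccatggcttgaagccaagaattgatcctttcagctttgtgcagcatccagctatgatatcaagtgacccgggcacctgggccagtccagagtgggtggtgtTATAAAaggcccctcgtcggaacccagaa
Tiparp: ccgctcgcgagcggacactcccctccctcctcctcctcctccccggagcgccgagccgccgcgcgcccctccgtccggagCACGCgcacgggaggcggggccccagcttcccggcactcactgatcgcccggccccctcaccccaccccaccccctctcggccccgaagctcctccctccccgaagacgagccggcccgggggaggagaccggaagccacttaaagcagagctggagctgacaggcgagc
The sequences lie at chr9:57697363-57697612 (plus strand), chr17:79715062-79715311 (minus strand), chr9:57683656-57683905 (minus strand) and chr3:65528197-65528446 (plus strand), in the order shown. The receptor core occurred once in each of Cyp1a1 (first base 54 bases before the start), Cyp1b1 (76 bases before, opposite strand) and Tiparp (170 bases before, opposite strand), and not in this window of Cyp1a2 or Cyp2s1. Of all 32851 promoter windows of this length, 28.2% held the core on either strand. A match is a description of the letters and not evidence of a bound site. Sequence further upstream was not searched, and any link between these letters and the smoke differences was not tested. TATAAA stood 30 and 29 bases before the start of Cyp1a1 and Cyp1a2 and was absent from the windows of Cyp1b1, Tiparp and Cyp2s1. On either strand (TATAAA or TTTATA) it occurred in 12.4% of windows, and the motifs did not overlap. Cyp1a1 and Cyp1a2 are neighbours with no protein-coding gene between them, transcribed away from each other from starts 14.0 kb apart.

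The first comparison asked whether the members differed between smoked and control lungs. Cyp1a1 (brighter probe set) had a deposited intensity of 58.8 on the C57 control array and 2552 on the C57 smoked array, 16.9 and 385 for DBA, and 36.1 and 368 for ICR. Every smoked array was above every control array. In whole-lung RNA a change in the number of cells of a type and a change in RNA per cell cannot be told apart. The rise was 19.3-fold on average (log2 4.27, SE 0.28; limma adjusted p = 0.000796; differences 4.27 ± 0.75, SD, n = 3 pairs). Among the 7453 probe sets tested, its difference ranked 1 in C57, 1 in ICR and 5 in DBA. Within each array Cyp1a1 stood at percentile 49.6, 26.2 and 43.1 of all probe sets on the C57, DBA and ICR control arrays and at 98.8, 82.9 and 94.9 on the smoked arrays, a shift that does not depend on scaling between arrays.

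Cyp1b1, which oxidizes hydrocarbons and steroids in tissues outside the liver, read 124 and 638 in C57, 47.1 and 319 in DBA, and 35.1 and 52.1 in ICR on the control and smoked arrays. It was higher on the smoked array of every pair, but the ICR smoked array lay below the C57 control array. It rose 4.00-fold on average (log2 2.0, SE 0.24; limma adjusted p = 0.0454). In ICR the rise depended most on scaling: the log2 difference was 1.41 after quantile normalization, 1.30 after setting medians equal and 0.48 without scaling, against 2.26 to 2.29 in C57 and 2.30 to 2.57 in DBA. Of the 6 members tested, these 2 rose and 0 fell, where 0.0403% of all probe sets were called. Both were at least 2-fold higher in every pair, as were 0.765%, 0.684% and 2.79% of all probe sets in C57, DBA and ICR. None of the 6 members tested was at least 2-fold lower in any pair (0.443%, 2.36% and 3.69% of all probe sets). Without the ICR pair neither Cyp1a1 nor Cyp1b1 was called (adjusted p = 0.176 for each, log2 4.40 and 2.30), and without strain as a block neither was. The Cyp1b1 call was also lost with a pseudocount of 32, another scaling, no filter or no variance trend (adjusted p = 0.0837 to 0.342, log2 1.65 to 2.0 over these).

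**Figure D1:**
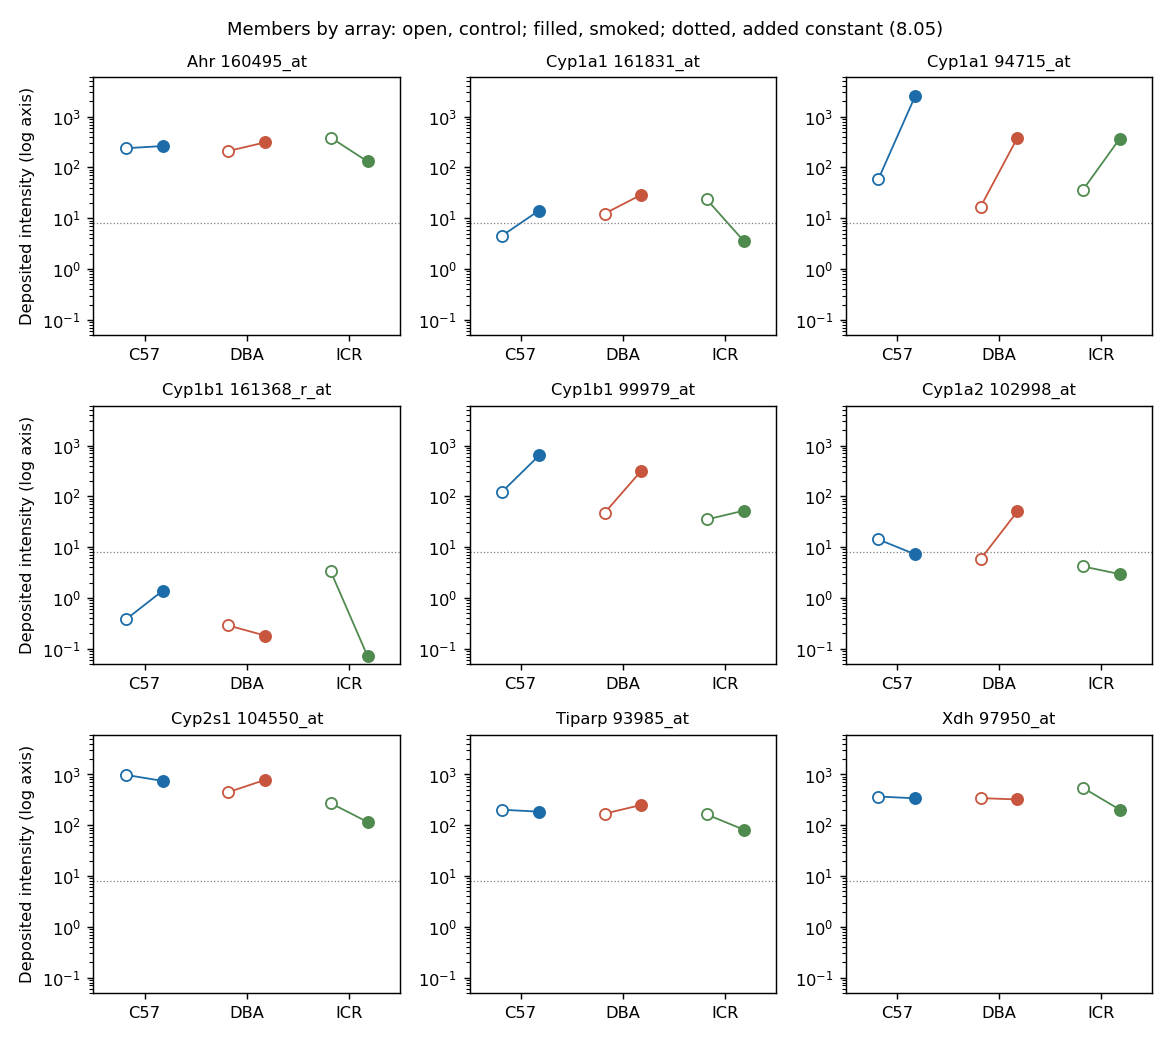
Deposited intensity (log axis) of all 9 member probe sets on the 6 arrays, with an open point for the control and a filled point for the smoked array of each strain. The brighter Cyp1a1 probe set reaches 2552 on the C57, 385 on the DBA and 368 on the ICR smoked array, while the dimmer probe sets of Cyp1a1 and Cyp1b1 stay at or below 29.1; the dotted line is the constant of 8.05 added before taking logs.

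The other probe set of each of these genes was not informative. For Cyp1a1 it read 4.56 and 14.2 in C57, 12.3 and 29.1 in DBA, and 23.4 and 3.59 in ICR, and for Cyp1b1 it read 0.0718 to 3.34 over the arrays. Neither passed the filter, and neither followed the signal of the brighter probe set in ICR. When the filter was left out their smoke differences were log2 0.09 (SE 0.41) and -0.12 (SE 0.17), and neither passed (limma adjusted p = 1.0 for each).

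Ahr, the receptor, read 239 and 264 in C57, 211 and 312 in DBA, and 388 and 131 in ICR. The deposited values were thus both highest and lowest in ICR, but after normalization both ICR arrays (log2 8.75 and 8.18) lay above the 4 arrays of C57 and DBA (7.56 to 7.88). The smoke difference was log2 0.16 (C57), 0.26 (DBA) and -0.57 (ICR), with a mean of -0.05 (SE 0.22; limma adjusted p = 1.0).

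Tiparp, an ADP-ribosyltransferase that is induced by the receptor and restrains it, read 202 and 185 in C57, 169 and 251 in DBA, and 163 and 82.0 in ICR. After normalization its 6 values lay between log2 7.24 and 7.53. The smoke difference was log2 0.07 (SE 0.20; limma adjusted p = 1.0), with -0.07 in C57, 0.26 in DBA and 0.00524 in ICR.

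Cyp2s1, a P450 of airway and other surface epithelia, read 979 and 744 in C57, 449 and 785 in DBA, and 272 and 116 in ICR. It was higher on the smoked array in DBA only (log2 0.52) and lower in C57 (-0.32) and ICR (-0.22), with a mean of -0.00465 (SE 0.21; limma adjusted p = 1.0). Whether the DBA difference stood apart from those of the other strains is tested further on.

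Xdh, which makes uric acid from purines and can release superoxide, read 368 and 339 in C57, 342 and 322 in DBA, and 547 and 203 in ICR. It was lower on the smoked array of every pair (log2 -0.05, -0.39 and -0.46 in C57, DBA and ICR; mean -0.30, SE 0.19) and did not pass (limma adjusted p = 1.0). With Cyp1a1 and Cyp1b1, it made 3 of 6 members with the same sign in all pairs, against 17.6% of all probe sets (9.86% higher and 7.77% lower).

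**Figure D2:**
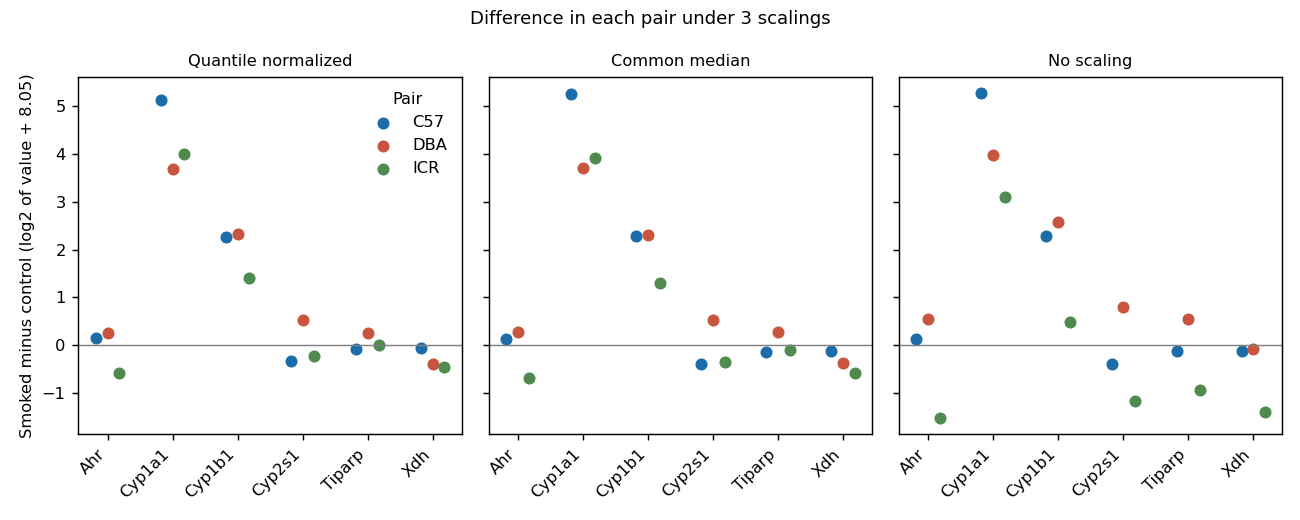
Smoked minus control difference (log2 of intensity plus 8.05) of the 6 members tested, with a point for each strain pair, after quantile normalization, after setting medians equal and without scaling. Cyp1a1 (3.09 to 5.26) and Cyp1b1 (0.48 to 2.57) are above 0 in every pair under each scaling, and the ICR points of all 6 genes are lower without scaling.

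Cyp1a2, the P450 of family 1 that is made mainly in liver, did not pass the filter. It read 14.2 and 7.21 in C57, 5.83 and 50.7 in DBA, and 4.17 and 2.95 in ICR. The DBA smoked array was the only high array, and the normalized difference was log2 -0.49 (C57), 1.68 (DBA) and 0.10 (ICR). When the filter was left out, limma gave a mean smoke difference of 0.43 (SE 0.40; adjusted p = 1.0), and the DBA difference exceeded that of the other pairs by 1.88 (SE 0.57), at an adjusted p of 0.924.

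Genes abundant in liver were, like Cyp1a2, highest on the DBA smoked array. The summed intensity of the 5 liver markers Alb, Mup3, Serpina1b, Apoa1 and Ttr was 281 for the C57 control and 55 for the C57 smoked array, 487 and 4016 for DBA, and 200 and 107 for ICR. Alb, serum albumin, read 20.6 and 1455 for DBA and 98.7 and 13.5 for C57, the same directions as Cyp1a2. On the control arrays the liver sum was higher in DBA than in C57 and Cyp1a2 lower, but most of that DBA sum was Serpina1b. Serpina1b read 428 on the DBA control and 79.6 on the C57 control array, and Ttr 24.6 and 20.7. Alb (20.6 and 98.7), Mup3 (3.51 and 51.3) and Apoa1 (10.3 and 30.3) were lower on the DBA control array, as Cyp1a2 was. None of the 5 was at 0 on any array. Other genes of the liver, named after their values were seen, were also high on the DBA smoked array: the P450s Cyp3a11 (141, against 0.908 to 5.28 on the other 5 arrays) and Cyp2d10 (60.3, against 1.05 to 3.40), and Uox, the urate oxidase that follows Xdh in purine breakdown (61.9, against 1.42 to 15.9). All 3 of these failed the filter, as Cyp1a2 did. The part of liver RNA in the Cyp1a2 value was not tested.

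**Figure D3:**
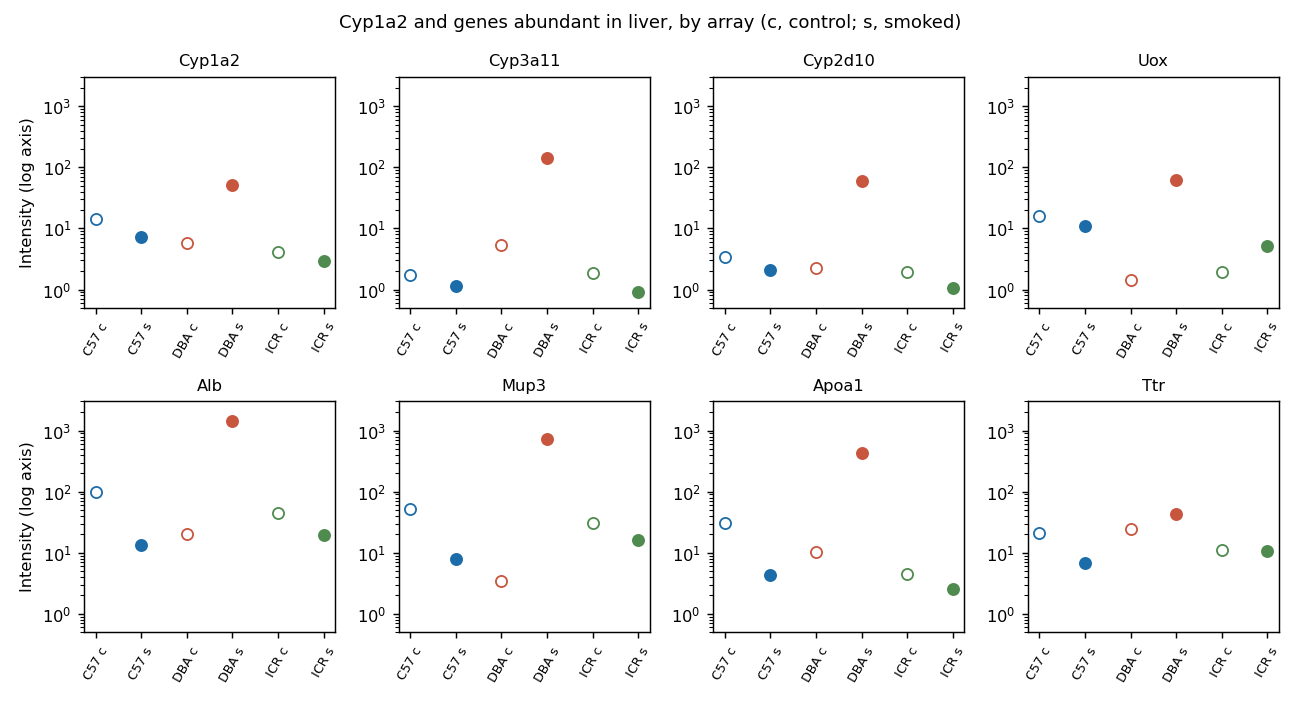
Deposited intensity (log axis) of Cyp1a2 and of 7 genes abundant in liver on the 6 arrays, open for control and filled for smoked. The DBA smoked array is the highest for all 8 genes, at 50.7 for Cyp1a2 and 1455 for Alb.

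The next comparison asked whether the level of the members differed between strains over both exposures, from 2 arrays per strain. C57 had the highest level of Cyp1a1, Cyp1b1 and Cyp2s1, and ICR had the highest values of Ahr and Xdh. Cell type markers differed between the strains too. All 5 skeletal muscle markers (Acta1, Myh1, Tnnc2, Tnnt3 and Atp2a1) were called lower in DBA and in ICR than in C57, with summed intensities of 5453 and 3838 in C57, 715 and 312 in DBA, and 119 and 67 in ICR. Their part in the strain differences was not tested. Cyp1a1 was 4.76-fold lower in DBA than in C57 (log2 -2.25, SE 0.34; limma adjusted p = 0.0126). This held on the control arrays (log2 -1.54) and on the smoked arrays (-2.97). ICR lay between the others at -0.97 from C57 (SE 0.34, adjusted p = 0.182) and 1.28 from DBA (SE 0.34, adjusted p = 0.127), so neither neighbour in that order passed the test. With an array left out the ICR difference ran from log2 -1.61 to -0.34 from C57 and from 0.84 to 1.72 from DBA. Whether these differences were called changed with the array left out. Such fits leave 1 residual degree of freedom. The deposited values put the DBA and ICR smoked arrays close together (385 and 368), while the normalized ones put ICR above DBA by 1.44. Cyp1a1 was the 1 of 6 members called between DBA and C57, where 1.73% of probe sets were called (0.872% higher and 0.859% lower). The call was lost without either ICR array (adjusted p = 0.0618 without the control and 0.0647 without the smoked array), with the same log2 difference, as well as without scaling (-2.06) or filter.

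Between ICR and C57, 2 of 6 members were called, both lower in ICR, where 2.29% of probe sets were called (0.926% higher and 1.37% lower). Cyp1b1 was 3.40-fold lower in ICR (log2 -1.77, SE 0.30; limma adjusted p = 0.0206), by -1.34 on the control and -2.19 on the smoked arrays. Its level in DBA was closer to ICR, at -1.31 from C57 (SE 0.30, adjusted p = 0.0697), and on the control arrays DBA and ICR had the same normalized level (log2 5.52). With an array left out the DBA difference from C57 ran from log2 -1.56 to -1.06, and whether it was called changed with the array. The ICR call was lost without the C57 smoked array (adjusted p = 0.0660) and without the ICR smoked array (0.0647), as well as without the filter (0.0768).

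Cyp2s1 was 2.56-fold lower in ICR than in C57 (log2 -1.36, SE 0.26; limma adjusted p = 0.0348), by -1.41 on the control and -1.31 on the smoked arrays. DBA lay between them (-0.58 from C57, SE 0.26, adjusted p = 0.447). Both ICR arrays were below both C57 arrays, as for 26.5% of all probe sets, and below both DBA arrays (22.9%), and both DBA arrays were below both C57 arrays (29.3%). The call was lost without the C57 control (adjusted p = 0.247), the ICR control (0.164) or the ICR smoked array (0.0945), and without the filter (0.0920) or the variance trend (0.0683). Cyp2f2, the abundant P450 of club cells, was likewise lower in ICR, by log2 -0.87 from C57 (adjusted p = 0.0380) and -0.92 from DBA (adjusted p = 0.0453). Both calls were lost without the filter (0.15 and 0.178), without the variance trend (0.135 and 0.155) and without either ICR array. The call against C57 was also lost without either C57 array. The call against DBA was also lost with a common median (0.13) and without the DBA smoked array. The 3 measured club cell markers, Cyp2f2 among them, summed to 13399 and 15329 in C57 and 10290 and 9014 in ICR. Scgb1a1 itself was log2 0.11 from C57 in ICR (SE 0.15, adjusted p = 0.741) after normalization. Foxj1, a factor of ciliated cells and the 1 ciliated marker tested, and Sftpb, 1 of the 3 alveolar type II markers tested, were called lower in ICR than in C57. The difference was log2 -1.28 for Foxj1 (adjusted p = 0.0494) and -1.0 for Sftpb (adjusted p = 0.0348). The type II markers Sftpc (-0.14, adjusted p = 0.656) and Lyz2 (0.70, adjusted p = 0.0911) were not called. Emp2, 1 of the 3 alveolar type I markers tested, was called higher in ICR than in C57 (1.15, adjusted p = 0.0238). The part of cell makeup in these P450 values was not tested.

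Ahr and Xdh had higher values in ICR than in the inbred strains and did not pass. For Ahr the difference was log2 0.66 from C57 (SE 0.27, limma adjusted p = 0.245) and 0.78 from DBA (SE 0.27, adjusted p = 0.223), and without scaling it turned to -0.14 and -0.18. For Xdh it was 0.74 from C57 (SE 0.23, adjusted p = 0.138) and 0.93 from DBA (SE 0.23, adjusted p = 0.104), and without scaling -0.08 and 0.01. Between DBA and C57, Ahr differed by -0.11 (SE 0.27, adjusted p = 0.933). Both ICR arrays were above both C57 arrays for Ahr, Xdh and Tiparp, as for 24.7% of all probe sets, and above both DBA arrays for the same 3 (25%). No member had both DBA arrays above both C57 arrays (23.2% of all). Tiparp values differed by -0.07 to 0.15 between strains, and without scaling by -0.69 (ICR against C57) and -0.79 (ICR against DBA). Of the 6 members, 0 were called by limma between ICR and DBA, where 1.17% of probe sets were called (0.51% higher and 0.657% lower), and 4 had an unadjusted p below 0.05, as did 15.6% of all probe sets.

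**Figure D4:**
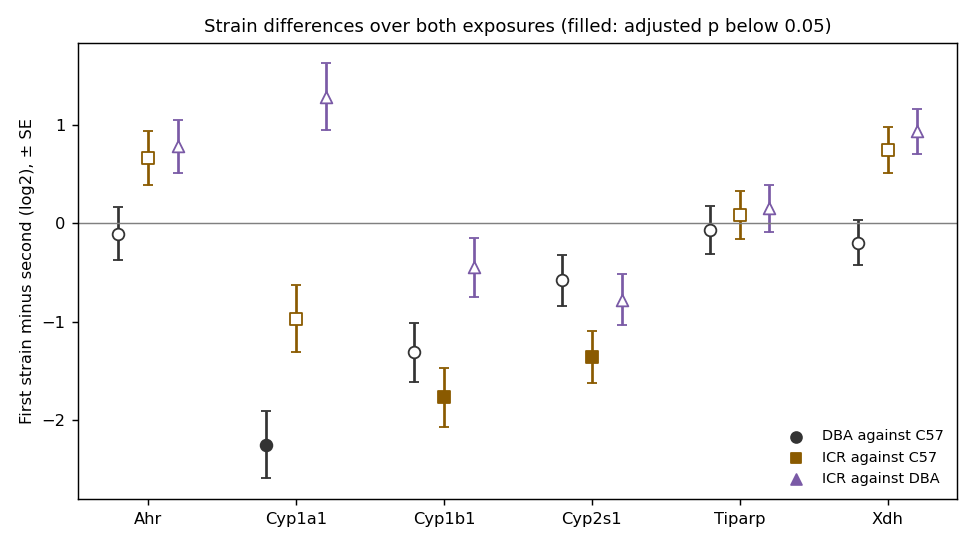
Difference between strains (log2, first named minus second, over both exposures) of the 6 members tested, with SE bars, filled where the adjusted p was below 0.05. The filled points are Cyp1a1 in DBA against C57 (-2.25) and Cyp1b1 (-1.77) and Cyp2s1 (-1.36) in ICR against C57.

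The series asks about sensitivity to smoke, so the smoke difference of each strain was also tested against that of the others. The Cyp1a1 difference was largest in C57, by log2 1.27 over the mean of the other pairs (SE 0.55; unadjusted p = 0.0273, limma adjusted p = 1.0). In DBA it was lower by -0.87 (SE 0.54, adjusted p = 1.0) and in ICR by -0.40 (SE 0.62, adjusted p = 0.773). The size of the DBA value depended on the processing. It was -0.52 with a pseudocount of 1, -1.32 with a pseudocount of 32 and -0.20 without scaling. For Cyp1b1 the lowest difference was in ICR, by -0.89 (SE 0.32; unadjusted p = 0.0370, adjusted p = 0.336), and the same held for Ahr (-0.78, SE 0.29; unadjusted p = 0.0431, adjusted p = 0.341). The Cyp2s1 difference in DBA was above the others by 0.79 (SE 0.51, adjusted p = 1.0). In all, limma called 0 of 6 members in each of the tests of C57, DBA and ICR, with 1, 0 and 2 at an unadjusted p below 0.05, where 0.134% (0.0939% higher, 0.0403% lower), 0.711% (0.134% higher, 0.577% lower) and 0% of probe sets were called. The shares of all probe sets at an unadjusted p below 0.05 were 3.01%, 3.94% and 14.3%. Without scaling, Cyp1a1, Cyp1b1 and Ahr were called lower in ICR (-1.53, -1.95 and -1.86), in a setting in which 1780 of 7453 probe sets were called lower. These tests leave 1 residual degree of freedom and assume that a lone pair varies like the others.

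Further genes of the pathway were described by lists. Of 15 other known targets of the receptor, 10 were measured and 6 tested, and 1 rose with smoke: Aldh3a1, which oxidizes aldehydes (586 and 1557 in C57, 188 and 1208 in DBA, 214 and 409 in ICR; log2 1.87, SE 0.22; limma adjusted p = 0.0454). The call was lost without the ICR pair (adjusted p = 0.946), without strain as a block (1.0), without scaling (0.524) or with a common median (0.0689), without the filter (0.267) and without the variance trend (0.133), with log2 1.65 to 1.91 over these. Its dimmer probe set was higher on every smoked array too (log2 1.97, 2.05 and 1.39). Nqo1, a quinone reductase, read 36.2 and 120 in C57, 16.4 and 95.6 in DBA, and 19.0 and 15.9 in ICR, and did not pass (log2 1.24, SE 0.30). The other Nqo1 probe set failed the filter and differed by log2 0.78 (C57), 0.99 (DBA) and 0.47 (ICR). Gsta2, a glutathione transferase, read 244 and 253 in C57, 124 and 308 in DBA, and 77.0 and 79.7 in ICR. After normalization it differed by log2 0.08 (C57), 1.01 (DBA) and 0.99 (ICR), and it did not pass. Aldh3a1, Nqo1 and Gsta2 were the 3 of 6 genes tested with an unadjusted limma p below 0.05, as were 1.64% of all probe sets. Over the genes tested the median normalized difference of the list was 0.04 (C57), 0.69 (DBA) and 0.56 (ICR), and over all probe sets -0.01, 0.03 and 0.01. Whether Nqo1 and Gsta2, named after their values were seen, respond through this receptor or another factor was not tested.

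Arnt, Hsp90aa1, Ahrr, Alas1, Cyp2b10 and Cyp4b1 are given for their roles and were picked after values were seen. The partners of the receptor were measured for 11 of 15 genes and tested for 8. With smoke limma called 0 of them, and 0 had an unadjusted p below 0.05. Arnt, the dimer partner, read 62.2 and 73.3 in C57, 102 and 126 in DBA, and 58.6 and 23.5 in ICR, with a mean log2 difference of -0.02. Hsp90aa1, the chaperone of the free receptor, had a mean of 0.12. Ahrr, the repressor that competes with the receptor and is itself a target, read 2.63 and 13.8 in C57 and at most 4.72 on the other arrays, and did not pass the filter. Sp1, a factor that binds GC-rich promoters beside the receptor, was higher in DBA than in C57 (log2 1.58, SE 0.24; adjusted p = 0.0120) and in ICR than in C57 (2.10, SE 0.24; adjusted p = 0.00324). Both calls were lost without scaling (adjusted p = 0.162 and 0.204). Its intensity was 73.8 and 91.2 in C57, 275 and 342 in DBA, and 283 and 185 in ICR.

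Genes that supply electrons and haem to P450s were tested for 10 of 13, and 0 were called with smoke (0 at an unadjusted p below 0.05). Alas1, the first enzyme of haem synthesis, differed by log2 -0.48 (C57), -0.03 (DBA) and 0.16 (ICR). Alad, the next enzyme of that pathway, was higher in DBA than in C57 (358 and 363 in C57, 898 and 1268 in DBA, 457 and 188 in ICR; log2 1.47, SE 0.23; adjusted p = 0.0128), a call lost without scaling (0.332). Of the lung P450s of families 2 to 4, 6 of 16 were tested and 0 were called with smoke (0 at an unadjusted p below 0.05), with Cyp2f2 at 0.08, Cyp2b10 at 0.22 and Cyp4b1 at -0.03 on average. Among the 8 genes tested of molybdenum hydroxylases and purine breakdown, to which Xdh belongs, 0 were called in any comparison. Mocs1, of molybdenum cofactor synthesis, was lower in every pair (log2 -0.57, -0.71 and -0.46) but failed the filter. The 5 ADP-ribosyltransferase and PARG genes tested and the 4 bHLH-PAS genes tested gave 0 calls with smoke (0 at an unadjusted p below 0.05 in each list).

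**Figure D5:**
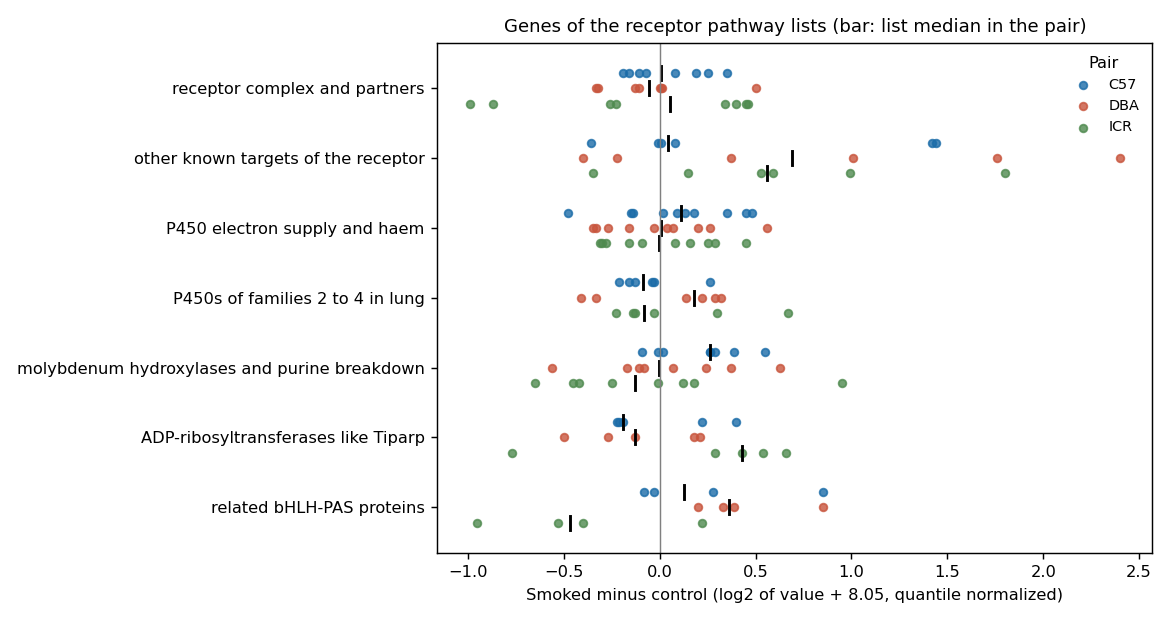
Smoked minus control difference (log2, quantile normalized) of the genes tested in 7 lists around the receptor, with a point per gene and strain pair and a bar at each list median. The list of other known targets reaches 2.40 (Aldh3a1 in DBA), and its C57 median is 0.04 against 0.69 for DBA and 0.56 for ICR.

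Markers of the cell types in which Cyp1a1 is known to be inducible are set beside its rise. Of 5 endothelial genes tested 0 were called with smoke (1 at an unadjusted p below 0.05, Kdr, at a mean log2 difference of 0.44, named after its value was seen), and of 3 club cell genes and 3 alveolar type II genes 0 were called (0 at an unadjusted p below 0.05 in each). The summed deposited intensity of the endothelial markers ran from 4943 to 5440 on the control arrays and from 2928 to 6287 on the smoked arrays. The lowest sum was that of the ICR smoked array, which had the lowest median intensity. After normalization the median difference of the endothelial genes tested was log2 0.09 (C57), -0.02 (DBA) and 0.22 (ICR). The 5 neutrophil markers summed to 15799 on the DBA control array and to 725 to 2781 on the other 5, and 4 of them were called lower in the DBA response. The part of cell makeup in the member values was not tested.

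The genes whose values followed each main member most closely over the 6 arrays were listed as a description, since the arrays share strain and exposure. For Cyp1a1 these were Psph, Fez1, Gadd45b, Aldh3a1 and Mtarc2 (Pearson correlation 0.928 to 0.969), but only Aldh3a1 among these 5 varied widely (range log2 2.97, against 0.26 to 0.58). For Cyp1b1 they were Txnrd2, Nqo1, Foxf2, Nudt5 and Gclm (0.963 to 0.987), of which Nqo1 had a range of 2.44 and the others 0.45 to 0.90. For Ahr they were Cmpk2, Rsrc2, Errfi1, Rev3l and Scp2 (0.993 to 0.995). In deposited intensity each of these, like Ahr, was highest on the ICR control array and lowest on the ICR smoked array, the array with the lowest median. The correlations were taken on normalized values, where Ahr on the ICR smoked array (log2 8.18) lay above the C57 and DBA arrays (7.56 to 7.88).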

How the data were processed

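Lung RNA was measured on 6 Affymetrix arrays. The deposited values are intensity per probe set, linear, from 0.0305 to 10579. The sources used here do not say how the authors summarised and scaled them, and the labels' protocols give Trizol extraction and biotin-labelled cRNA. A constant of 8.05 (percentile 20 over the 6 arrays) was added before taking log2, and arrays were quantile normalized. After removal of 66 control probe sets, the 7453 with a mean above percentile 40 were tested with limma 3.58.1 in R 4.3.3 (lmFit, eBayes with a mean trend), with strain and exposure as terms and, for strain responses, an extra exposure effect of 1 strain. P-values were 2-sided and adjusted by Benjamini-Hochberg over these, and a probe set is said to be called, to have risen or to have fallen at an adjusted p below 0.05. The smoke test has 2 residual degrees of freedom. The labels do not say whether the arrays hold separate animals, so p-values measure only the spread between these samples, and the number of arrays limits precision. The added constant makes fold changes smaller, most where values lie near or below it. For Cyp1a1 the smoke difference was log2 4.59 with a pseudocount of 1, 4.27 with 8.05 and 3.61 with 32. The fit was tested on simulated data.

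The annotation gave 1 gene symbol for 10855 probe sets, several for 396 and none for 1237; all 7 member symbols matched the reference by gene identifier. A listed gene was represented by its brightest probe set. Named were all members, genes of the pathway lists that passed in any comparison or else those with the largest difference of 1 sign in all pairs, and the 5 genes most correlated with Cyp1a1, Cyp1b1 and Ahr; further pathway genes and cell type markers were named as examples. Members and lists were chosen with earlier results of these data known. Alternatives were other pseudocounts (1 and 32), scaling, filter, variance prior, no strain block, and arrays or pairs left out. Plots used matplotlib 3.10.9 in Python 3.11.15.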

Additional observations from a re-analysis of the deposited data

How the results depend on the processing

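Cyp1a1 kept its direction with smoke in all 12 alternatives (log2 3.61 to 4.59) and was called in 10, and Cyp1b1 kept it in 12 (1.65 to 2.30) and was called in 5. The number of members called with smoke was 2 in the fit reported. It was 1 with a pseudocount of 32, without scaling, with a common median, without the filter and without the variance trend. It was 0 without strain as a block and ran from 0 to 2 with a pair left out. Over all probe sets 3 were called in the fit reported, 1 to 3 in the settings with 1 member called, and 0 to 11 with a pair left out. Between DBA and C57 the number of members called with all 6 arrays kept was 1, and 0 without scaling and without the filter. Which members were called also changed with the array left out. Over all probe sets 129 of 7453 were called in the fit reported, 85 without scaling and 66 of 12422 without the filter. With an array left out the Cyp1a1 difference between DBA and C57 ran from log2 -2.89 to -1.62. Between ICR and C57 the number of members called with all 6 arrays kept was 2, 0 without the filter and 1 without the variance trend. It also changed, in both directions, with the array left out. Over all probe sets 171 of 7453 were called in the fit reported, 44 of 12422 without the filter and 116 of 7453 without the variance trend. With an array left out the difference between ICR and C57 ran from log2 -2.21 to -1.32 for Cyp1b1 and from -1.59 to -1.12 for Cyp2s1. Between ICR and DBA the number of members called was 0 in every setting that kept all 6 arrays. In the test of the ICR response it was 0, and 3 without scaling. The causes were not tested. Signs turned for differences that were not called. With smoke, Cyp2s1 was 0.15 without the C57 pair and 0.10 without the ICR pair (-0.27 without the DBA pair), Ahr 0.21 without the ICR pair, and Tiparp -0.17 without scaling and -0.03 without the DBA pair (0.13 without the C57 pair). Between DBA and C57, Ahr was 0.03 without scaling, 0.04 (C57 smoked array left out) and 0.12 (DBA control array left out), with -0.35 when the DBA smoked array was left out, and Tiparp was 0.09, 0.03 (without the C57 control array) and 0.07 (without the DBA control array), with -0.22 without the DBA smoked array. Between ICR and C57 without scaling, Ahr was -0.14, Xdh -0.08 and Tiparp -0.69; Tiparp was also -0.10 with a common median and -0.02 without the C57 smoked array (0.18 without the C57 control array). Between ICR and DBA without scaling, Ahr was -0.18 and Tiparp -0.79. Among responses without scaling, Tiparp was 0.07 in C57 and Xdh 0.67 in DBA. Without scaling the median over all probe sets was -0.21 with smoke, 0.14 for DBA against C57, -0.73 for ICR against C57 and -0.89 for ICR against DBA. Leaving out an array in the tests of strain responses was not run, since no residual degrees of freedom would remain. The smoke test was paired by strain. By replicate number, no paired analysis was possible because every title carries the same number, 1.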
